A study of Drosophila melanogaster with 18 samples.

Results

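The genes described here are 36 Drosophila genes for cell surface and secreted proteins of the immunoglobulin superfamily, chosen by name from the 17753 genes with exon records in the count tables. They are the 14 beaten path genes (beat), the 8 sidestep genes (side), the 4 Dscam genes, the 4 genes kirre, rst, sns and hbs, and 6 further genes, Fas2, Nrg, Lac, tutl, bdl and klg. The list goes by gene family and not by a cutoff on any measured value, though it was drawn up with earlier results of these data known, and all 36 had records that were counted and tested. The counts came from whole pupae at 48hr APF (after puparium formation), raised at 25°C, with about 1000 animals in a sample and males and females separated as white prepupae. All samples, males and females, TRAP and total mRNA, carried w and the same transgenes, a UAS-Gal4 insertion over a UAS-GFP::RpL10A insertion together with fru P1-Gal4/+, so the fru P1-Gal4 driver set which cells carried tagged ribosomes and there was no group without the tag. Translating ribosome affinity purification (TRAP) gave the ribosome-bound mRNA of cells with fru P1-Gal4 activity, and the matching total mRNA library came from that same whole-animal lysate. There were 5 male TRAP and 5 male total mRNA libraries (replicates 1, 2, 3, 5 and 6) and 4 female TRAP and 4 female total mRNA libraries (replicates 2, 3, 4 and 5).

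Immunoglobulin superfamily proteins let growing neurites recognise and adhere to, or avoid, other cells. The Beat proteins are known as receptors of Side proteins. Beat-Ia on motor axons binds Side on the cells along the route to the muscles, and related pairs bind as Beat-IIa and Beat-IIb with Side-IV, the Beat-V proteins with Side-VI, and Beat-VI with Side-II. The Dscam proteins bind copies of themselves, and Dscam1 and Dscam2 do so by splice isoform. Kirre and Rst bind Sns and Hbs and act in muscle formation, in nephrocytes and in eye patterning as well as in neurons. In the fly, fru P1 transcripts are made in a set of neurons found in both sexes. These neurons underlie the reproductive behaviors of males and of females, and at the mid-pupal stage they are still forming their connections.

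The total count per library was 24901633 to 67491630. Replicates of a group correlated at Pearson's r = 0.944 to 0.997 across genes, and male TRAP replicate 1 and female total mRNA replicate 5 were the least like the others of their groups. fru itself was at 272, 421, 289.8, 318 and 492 CPM (read counts scaled to the size of the library) in the 5 male TRAP libraries and at 81.3, 75.5, 66.4, 71.9 and 89.9 CPM in the male total mRNA libraries. In females it was at 404, 268, 445 and 372 CPM in TRAP and 164, 149.7, 116 and 100.1 CPM in total mRNA, so that TRAP and total mRNA did not overlap in either sex. Each of 10 neuronal marker genes (elav, Syt1, brp and others) was higher in TRAP in both sexes (median log2 fold change 1.61 in males and 1.00 in females). All 5 fat body markers were also higher in TRAP in both sexes, with medians of 4.36 and 4.92 and summed levels of 4025 to 11740 CPM in male TRAP against 1058 to 1419 CPM in male total mRNA, and of 10700.0 to 19370.0 CPM against 1903 to 2042 CPM in females. The part of this signal in the results below was not tested. The medians of the other marker lists in males and females were -0.01 and -0.39 for 8 glial genes, -0.10 and -0.81 for 10 muscle genes, 0.13 and -0.34 for 6 myoblast fusion genes, 0.09 and -0.43 for 4 tracheal genes, 0.30 and -0.35 for the 5 tested of 6 hemocyte genes, and -0.53 and -1.05 for the 7 male and 4 female male-germline genes that were tested, of 7. Single genes went both ways. Of the 8 glial genes, 2 were higher and 3 lower in male TRAP, and 1 and 4 in female TRAP. Of the 10 muscle genes, 3 were higher and 4 lower in males, and 2 and 6 in females. The summed glial markers were at 318 to 648 CPM in male TRAP against 441 to 481 CPM in total mRNA. In females they were at 425 to 632 CPM against 265 to 276 CPM. Their part in the results below was not tested. No marker gene was at 0 in every library of a comparison.

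The main question was which of these genes are enriched in the translated mRNA of fru P1 cells over the whole animal. In males, 33 of the 36 genes were higher in TRAP than in total mRNA and none was lower (edgeR quasi-likelihood test on gene counts, adjusted p under 0.05, with 0 lower also at an unadjusted p under 0.05 and by DESeq2), where 33.4% of the 13656 genes tested were called higher and 32.4% lower. In females, 32 were higher and 2 were lower, where 26.8% of 11981 genes were called higher and 23.8% lower. Without male TRAP replicate 1, 34 genes were higher in males, and without female total mRNA replicate 5, 31 were higher and 1 lower in females. Gene counts from records that overlap no other kept 28 of the 33 male and 24 of the 34 female calls. The 31 genes higher in both sexes included all 4 Dscam genes, 13 of the 14 beat genes and 7 of the 8 side genes. The median log2 fold change of the 36 genes was 1.36 in males (range -0.15 to 2.28) and 0.84 in females (-0.41 to 1.68), and that of all genes tested was -0.02 and -0.03. In whole-animal samples, fewer cells of a type and less RNA per cell cannot be told apart. TRAP and total mRNA libraries did not overlap for 33 genes in males, all higher in TRAP, and for 31 in females, of which 30 were higher and 1 lower. Of all genes over 1 CPM, TRAP was above total mRNA without overlap for 25.4% in males and 24.7% in females. TRAP exceeded the total mRNA of the same lysate in all 5 male pairs for 33 genes, and in all 4 female pairs for 31. It was below total mRNA in all 4 female pairs for Lac and bdl. The share of all genes with such pairs was not computed.

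**Figure D1:**
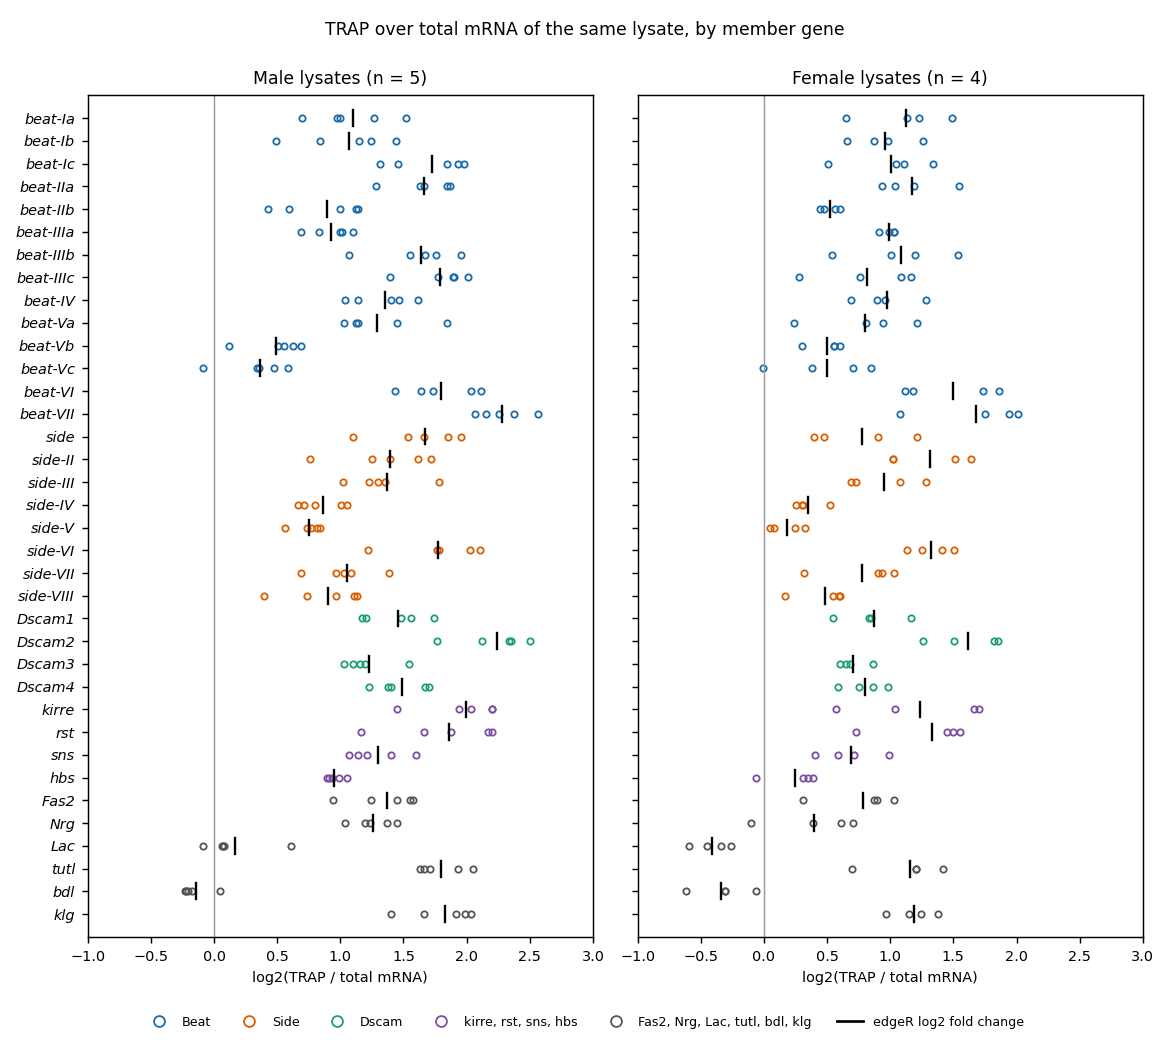
TRAP over total mRNA of the same lysate for each of the 36 genes, as log2 ratios of normalised counts, with 1 circle for each of the 5 male and 4 female lysates and a black tick at the fitted log2 fold change. Most genes have every circle to the right of 0 in both sexes, and Lac and bdl lie near or left of 0.

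All 14 beat genes, which encode the Beat receptors and secreted relatives, were higher in female TRAP and 13 in male TRAP, with median log2 fold changes of 0.98 and 1.32. The largest enrichment among all 36 genes in both sexes was that of beat-VII. It was at 15.8, 22.9, 15.9, 14.3 and 17.2 CPM in the male TRAP libraries and 3.31, 4.40, 2.69, 3.22 and 4.11 CPM in male total mRNA, a log2 fold change of 2.28 ± 0.16 (SE, adjusted p = 1.48e-06). In female TRAP it was at 22.4, 14.4, 17.6 and 16.8 CPM against 6.65, 6.82, 4.38 and 4.39 CPM in total mRNA (1.68 ± 0.19, adjusted p = 9.18e-05). The lowest TRAP library was more than every total mRNA library in each sex, although beat-VII was among the least abundant of the 36 per kilobase. beat-VI, the receptor of Side-II, was far more abundant and had a log2 fold change of 1.79 ± 0.15 in males and 1.496 ± 0.18 in females. Its male TRAP libraries were at 62.3, 91.6, 70.6, 57.3 and 64.4 CPM and the male total mRNA libraries at 18.8, 22.4, 16.3, 18.4 and 23.9 CPM.

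beat-IIIc had the most CPM per kilobase of the family. It was at 85.9, 113, 95.8, 109 and 132 CPM in male TRAP and 32.8, 30.5, 23.8, 29.1 and 38.7 CPM in male total mRNA (1.79 ± 0.15). Female TRAP was at 144, 97.1, 141 and 117 CPM and female total mRNA at 84.9, 80.2, 66.6 and 52.2 CPM (0.81 ± 0.17). The groups did not overlap in either sex, and the female margin was narrow, from 84.9 CPM in the highest total mRNA library to 97.1 CPM in the lowest TRAP library. Its neighbours on chromosome 2L, beat-IIIb and beat-IIIa, had log2 fold changes of 1.64 and 0.93 in males and 1.08 and 0.99 in females. All 9 distinct records of beat-IIIa overlapped those of CG34106 on the same strand, so its values are uncertain.

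The log2 fold changes of beat-Ia, beat-Ib and beat-Ic, which lie near each other on chromosome 2L, were 1.10, 1.07 and 1.73 in males and 1.13, 0.96 and 1.01 in females. beat-IIa and beat-IIb, whose products both bind Side-IV, differed in level and in enrichment. beat-IIa was at 59.3, 93.2, 68.3, 66.8 and 76.3 CPM in male TRAP against 24.4, 25.9, 18.7, 21.1 and 24.7 CPM in total mRNA (1.66 in males, 1.17 in females), and beat-IIb at 8.17, 13.5, 15.1, 9.76 and 14.0 CPM against 6.08, 6.76, 6.86, 6.46 and 6.42 CPM (0.90 and 0.52). beat-IV had log2 fold changes of 1.35 and 0.98. With gene counts from records that overlap no other, beat-IV was at -0.0434 in females and not called in either sex. beat-Va had 1.29 and 0.80 in males and females, and with those other gene counts -0.00234 and -0.348, neither of them called. beat-Vb and beat-Vc had the lowest values of the family in both sexes. beat-Vb had 0.49 and 0.50. beat-Vc was the family's only gene not called in males, at 4.75, 7.46, 7.89, 4.69 and 7.14 CPM in TRAP and 3.70, 5.89, 5.25, 4.98 and 5.15 CPM in total mRNA (0.36 ± 0.18, adjusted p = 0.0899). With each lysate as a replicate block it was called (0.34, adjusted p = 0.038). In females it was called at 0.50 ± 0.15 (adjusted p = 0.0202) although its groups overlapped, and without total mRNA replicate 3 it was not (0.44).

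All 8 side genes were called higher in males and 7 in females, with medians of 1.21 and 0.78. side, whose product guides motor axons that carry Beat-Ia, was the most abundant in total CPM, at 85.0, 157, 125, 118 and 199 CPM in male TRAP and 39.6, 43.6, 39.4, 40.9 and 51.2 CPM in male total mRNA (1.67 ± 0.20). In females it was at 116, 104, 178 and 141 CPM in TRAP and 83.5, 79.0, 76.9 and 75.3 CPM in total mRNA (0.78 ± 0.15). side-VI, the partner of the Beat-V proteins, was the most enriched of the family in both sexes, at 1.77 ± 0.14 and 1.32 ± 0.13. Its levels were 33.8, 50.0, 39.7, 38.2 and 47.0 CPM in male TRAP and 14.5, 12.3, 9.24, 11.2 and 13.8 CPM in male total mRNA. side-II, the partner of Beat-VI, had nearly equal log2 fold changes in the sexes, 1.39 ± 0.17 and 1.31 ± 0.14, and was at 26.0, 24.0, 37.3 and 30.2 CPM in female TRAP against 12.8, 11.9, 11.9 and 10.6 CPM in female total mRNA.

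side-III had log2 fold changes of 1.37 and 0.95, side-VII of 1.06 and 0.78, and side-VIII of 0.90 and 0.48. side-IV, the partner of Beat-IIa and Beat-IIb, was at 52.6, 73.8, 60.9, 54.0 and 76.5 CPM in male TRAP and 32.2, 36.7, 35.01, 34.1 and 36.9 CPM in male total mRNA (0.86 in males, 0.35 in females). Antisense RNA genes overlap side-IV, and the strand setting of the counting was not stated. Over the genome, 941 records of at least 100 counts lay inside a record of a gene on the opposite strand. Of these, 469 had more counts than the record around them. The part of antisense reads in the values of side-IV was not tested. The smallest change was that of side-V. It was higher in males (0.75 ± 0.11) but was not called in females, where TRAP was at 40.0, 30.1, 35.1 and 30.9 CPM and total mRNA at 31.9, 28.5, 29.6 and 30.0 CPM (0.18 ± 0.10, adjusted p = 0.161).

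For the known binding pairs, genes of both partners were higher in male TRAP. In males the log2 fold changes of ligand and receptors were 1.67 for side against 1.10 and 1.07 for beat-Ia and beat-Ib, 0.86 for side-IV against 1.66 and 0.90 for beat-IIa and beat-IIb, 1.39 for side-II against 1.79 for beat-VI, and 1.77 for side-VI against 1.29, 0.49 and 0.36 for beat-Va, beat-Vb and beat-Vc. Of these values only that of beat-Vc did not pass the threshold. Samples of about 1000 pooled animals do not show whether a ligand and its receptor were in the same cells.

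The 4 Dscam genes were higher in TRAP in both sexes, with medians of 1.47 in males and 0.84 in females. Dscam2, whose isoforms mediate repulsion between like neurites, stood out with the second largest enrichment of the 36 genes in each sex. It was at 145, 251, 209.8, 199 and 297 CPM in male TRAP and 42.6, 49.2, 37.1, 45.7 and 58.8 CPM in male total mRNA (2.24 ± 0.19, adjusted p = 2.53e-06). Female TRAP was at 212, 166, 243 and 195 CPM and female total mRNA at 74.7, 69.6, 67.3 and 55.3 CPM (1.61 ± 0.14, adjusted p = 2.35e-05). In both sexes every TRAP library was far above every total mRNA library. Dscam1, known for its very many splice isoforms and for self-avoidance of neurites, was at 90.9, 159, 127, 101 and 148 CPM in male TRAP and 39.4, 47.5, 43.1, 44.9 and 52.8 CPM in male total mRNA (1.46), and had 0.87 in females. Antisense RNA genes also overlap Dscam1. Dscam4 had log2 fold changes of 1.49 and 0.80, and Dscam3 of 1.23 and 0.70. The female value of Dscam3 was -0.0416, not called, with gene counts from records that overlap no other.

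kirre and rst lie close together on chromosome X and encode related adhesion proteins that bind Sns and Hbs. kirre was at 152, 247, 168, 185 and 286 CPM in male TRAP and 55.9, 53.7, 41.0, 48.1 and 62.3 CPM in male total mRNA (1.99 ± 0.19). It was at 248, 179, 285 and 247 CPM in female TRAP and 120.3, 120.1, 89.8 and 75.9 CPM in female total mRNA (1.24 ± 0.18). rst followed closely, with 1.86 ± 0.19 in males and 1.33 ± 0.17 in females. The partner genes were less enriched. sns had 1.29 ± 0.13 and 0.69 ± 0.13, and hbs had 0.95 ± 0.12 in males and was not called in females (0.25 ± 0.13, adjusted p = 0.149), where TRAP at 154, 105, 129.8 and 118 CPM overlapped total mRNA at 121, 109.6, 105 and 90.3 CPM. Of the markers of other cells that use these genes, myoblast fusion genes were 1 higher and 2 lower of 6 in male TRAP and 1 higher and 3 lower in female TRAP. The 3 nephrocyte markers tested, of 4, were all higher in male TRAP (median 1.16), and 2 were higher and 1 lower in female TRAP (median 0.72). The summed nephrocyte markers were at 397 to 868 CPM in male TRAP and 139 to 201 CPM in male total mRNA, and their part in the result was not tested.

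Among the 6 remaining genes, klg, tutl, Fas2 and Nrg were higher in TRAP in both sexes. klg, which encodes a homophilic adhesion protein, was at 104, 187, 139, 125 and 177 CPM in male TRAP and 39.4, 45.5, 35.1, 39.4 and 46.8 CPM in male total mRNA (1.83 ± 0.16 in males, 1.19 ± 0.11 in females). tutl, whose product shapes axon and dendrite fields, was at 243, 337, 287, 250.3 and 331 CPM and 78.4, 88.2, 69.2, 76.7 and 105 CPM (1.79 ± 0.14 and 1.16 ± 0.18). Fas2, the homophilic protein that bundles axons, was at 181, 265, 227, 218 and 316 CPM and 94.2, 90.2, 76.1, 92.0 and 116 CPM (1.37 ± 0.16 and 0.79 ± 0.14). These 3 genes had non-overlapping groups in each sex.

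Nrg (Neuroglian) encodes an L1-type adhesion protein of neurons and epithelia and was the most abundant of the 36 genes. It was at 619, 835, 652, 652 and 835 CPM in male TRAP and 301, 323, 239, 276 and 365 CPM in male total mRNA (1.26 ± 0.14). In females TRAP was at 906, 640.0, 844 and 796 CPM and total mRNA at 691, 687, 552 and 489 CPM, so the groups overlapped, and the log2 fold change was 0.40 ± 0.15 (adjusted p = 0.0453). This female call was lost when any of 5 of the 8 libraries was left out (0.31 to 0.42).

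Lac and bdl were the exceptions. Lac encodes a homophilic protein of epithelial septate junctions that is also needed in the trachea, and bdl encodes the partner of Tutl in photoreceptor axons. Lac was at 31.7, 39.0, 52.2, 32.0 and 45.8 CPM in male TRAP and 30.0, 37.5, 34.1, 33.9 and 43.5 CPM in male total mRNA (0.17 ± 0.15, adjusted p = 0.347). It was lower in female TRAP, at 64.0, 60.3, 57.2 and 55.5 CPM against 76.7, 76.3, 78.3 and 83.9 CPM without overlap (-0.41 ± 0.08, adjusted p = 0.00181). In the same female samples all 4 tracheal markers were lower in TRAP (median -0.43), and their part in the result was not tested. bdl was at 10.2, 14.2, 11.8, 10.8 and 11.9 CPM in male TRAP and 11.9, 13.7, 13.9, 12.5 and 13.5 CPM in total mRNA (-0.15 ± 0.10, adjusted p = 0.228). In females it was called lower, at 16.4, 17.5, 17.7 and 16.2 CPM against 17.1, 21.6, 21.9 and 24.8 CPM (-0.34 ± 0.11, adjusted p = 0.0265), with 2 TRAP libraries above the lowest total mRNA library, and the call was lost without total mRNA replicate 3, 4 or 5 or TRAP replicate 2 or 5.

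**Figure D2:**
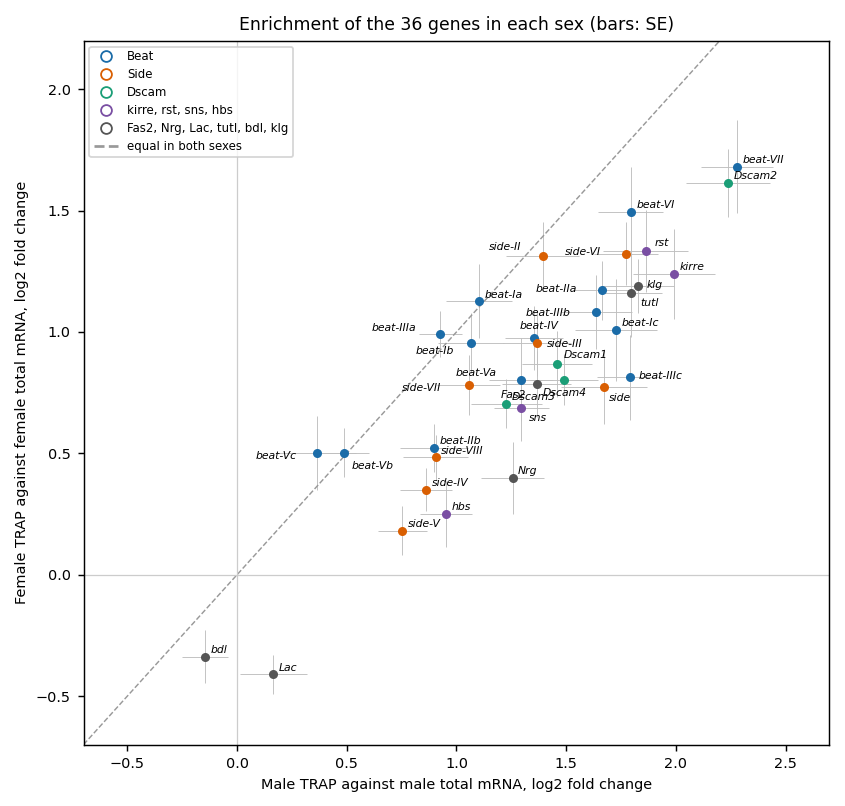
Log2 fold change of TRAP over total mRNA in females (vertical axis) against males (horizontal axis) for the 36 genes, coloured by family, with bars of 1 SE and a dashed line of equal values. beat-VII and Dscam2 lie at the upper right, at 2.28 and 1.68 and at 2.24 and 1.61, and Lac and bdl lie below 0 in females.

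Levels can be compared between genes only per length. Per kilobase of counted exon, Nrg had the highest level in TRAP, at 72.5 ± 10.8 CPM per kilobase (SD, n = 5) in male samples and 80.4 ± 11.5 (SD, n = 4) in female samples. The next in males were klg at 36.1 ± 8.62, Fas2 at 33.0 ± 7.03, tutl at 29.3 ± 4.43, beat-IIIc at 27.9 ± 4.57 and kirre at 26.4 ± 7.21 CPM per kilobase, each within an SD of its neighbour in this order. beat-IIa at 22.9 ± 4.05, hbs at 22.6 ± 2.61, beat-VI at 19.6 ± 3.78 and Lac at 18.6 ± 4.12 CPM per kilobase followed. The lowest in male TRAP were side-III at 2.75 ± 0.657, beat-VII at 2.81 ± 0.540, beat-Vc at 2.87 ± 0.694 and beat-Ic at 2.88 ± 0.714 CPM per kilobase, which did not differ beyond their spread. In male total mRNA the order began with Nrg at 30.4 ± 4.80, Lac at 16.6 ± 2.35 and Fas2 at 12.8 ± 1.95 CPM per kilobase, and beat-VII was lowest at 0.578 ± 0.114. Lac was thus among the most abundant of the 36 transcripts in the whole animal per kilobase and ranked 10 in male TRAP. Side genes were lower than the leading beat genes, with side-IV at 12.4 ± 2.16 and side at 11.7 ± 3.67 CPM per kilobase the highest of the family in male TRAP.

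Other families of wiring molecules, set beside the 36 genes as lists, were also higher in TRAP. Of 18 other wiring genes (cadherins, teneurins, Toll and neurexin-neuroligin genes), all 18 rose in the TRAP of males and 12 in that of females, with median log2 fold changes of 0.95 and 0.53. Of 20 other immunoglobulin surface genes (Fas3, Lar, the robo genes and others), 16 rose in male TRAP and 8 in female TRAP, with medians of 0.89 and 0.26, and 2 were lower in females. The dpr and DIP genes, the other large immunoglobulin wiring family, had 28 of 32 higher and 2 lower in males (median 1.16) and 29 of 31 higher in females (median 0.80). No test of the difference between these lists and the 36 genes was made.

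Counts per exon record, meaning 1 annotated exon, gave the enrichment along each gene. Tested records were those with over 2 CPM in at least 60% of libraries, compared with the edgeR exact test at a false discovery rate (FDR) of 0.2. In males, 34 of the 36 genes had a record higher in TRAP and none had a record lower, with 0 also at an unadjusted p under 0.05 and by the quasi-likelihood test (82 of 87 records higher), where 43.5% and 50.0% of all genes did. With no filter on records, 8 genes had a record lower in male TRAP, and the share of all genes in that fit was not computed. In females, 33 had a record higher and 5 a record lower (76 and 6 of 96 records), against 38.4% and 48.4% of all genes. The share of a gene's reads in its records differed between TRAP and total mRNA for 11 of 19 genes tested in males, where 45.6% of all genes tested were called, and for 8 of 20 in females, where 28.9% were (exon usage test, adjusted p under 0.05). Records that overlap one another entered this test as separate records. Reads they share were thus counted more than once, and the p-values do not allow for that. The genes called in both sexes were Nrg, Fas2, kirre, side, tutl, Dscam1 and Dscam4. klg, beat-IIa, beat-IIIb and beat-IV were called in males, and Lac in females. In females 5 genes were called without total mRNA replicate 2, 3 or 4 or TRAP replicate 4, with Dscam4, kirre and tutl lost each time, and in males beat-IIa, beat-IIIb and beat-IV were lost without some single libraries, leaving 8 to 10. In females kirre was also lost with the lysate as a replicate block. The 5 genes with a record lower in females were 3, 3, 2 and 3 without total mRNA replicate 2, 3, 4 or 5, and 3 without TRAP replicate 4 or 5. At an FDR of 0.05 they were 2.

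In females the records of Nrg spanned the widest range of the 36 genes, through an exon that was not tested in males, where kirre and side ranged more widely. Neuroglian is known in a ubiquitous and a neuron-specific form with different cytoplasmic ends, and the files hold alternative last coding exons of Nrg on chromosome X (dm6, plus strand). The last exon record at chrX:8551750-8553332, which holds a stop codon, was at 87.3, 141, 95.6, 91.0 and 119 CPM in male TRAP and 21.3, 22.4, 13.7, 17.5 and 24.7 CPM in male total mRNA, a log2 fold change of 2.42. In females it was at 139.5, 84.0, 102 and 107 and 38.1, 38.8, 29.1 and 20.0 CPM (1.78). The upstream alternative at chrX:8550083-8551207, also with a stop codon, was at 132, 128, 110.4, 136 and 130.2 CPM in male TRAP and 69.7, 61.7, 42.9, 57.0 and 80.4 CPM in male total mRNA (1.03). In females it did not pass the test, at 142, 126, 144 and 105 against 179, 189, 122 and 92.5 CPM (-0.17, the lowest of the female Nrg records). The upstream exon had more CPM than the downstream record in every total mRNA library of both sexes. The smallest male value was 0.65, at the coding exon chrX:8547738-8547905. The largest female value was 3.64, at an untranslated first exon (chrX:8517509-8518398) that was at 17.8, 14.9, 36.5 and 28.8 CPM in female TRAP and 2.24, 2.47, 1.77 and 1.38 CPM in female total mRNA and that passed the filter in females alone of the comparisons within a sex. The usage test for Nrg had an adjusted p of 9.31e-17 in males and 6.08e-20 in females. Several of the Nrg records tested contain one another, and these p-values do not allow for the reads they share.

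Fas2, which also has alternative ends, is read from the minus strand of chromosome X. In males the largest enrichment was at the coding exon chrX:4142050-4143543, at 8.29, 13.6, 13.2, 8.15 and 13.5 CPM in TRAP and 1.63, 2.92, 2.44, 2.06 and 3.82 CPM in total mRNA (2.14). The smallest was at the untranslated exon chrX:4205900-4206093, the most 5′ of the tested records (0.55). In females the largest was 2.24, at the exon chrX:4139053-4139317 with a stop codon, which was at 16.5, 11.8, 19.9 and 16.3 CPM in TRAP and 3.81, 4.37, 2.79 and 2.62 CPM in total mRNA. That exon was not tested in male TRAP against total mRNA. Among the records tested in both sexes, chrX:4142050-4143543 had the largest value in females too (1.91). The same 5′ untranslated exon was called lower in females, at 6.92, 7.05, 10.7 and 6.34 against 9.05, 10.1, 9.69 and 8.92 CPM (-0.29), with overlapping groups. Another last exon, chrX:4140175-4141954, had 1.03 in males and 0.30 in females, and chrX:4132887-4134903 had 1.96 and 1.42.

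For kirre (chromosome X, plus strand) the 5′ untranslated exon chrX:3099762-3100318 was at 31.3, 56.8, 33.9, 43.6 and 78.0 CPM in male TRAP and 7.42, 7.01, 5.09, 5.996 and 7.37 CPM in male total mRNA (2.89 in males, 1.65 in females). The coding exon chrX:3130743-3131847 was at 5.07, 6.03, 6.07, 4.21 and 5.12 CPM and 4.04, 3.64, 3.69, 3.97 and 4.50 CPM (0.41 and 0.65). These were the largest and smallest values of the gene in both sexes. In side (chromosome 3R, minus strand) the 5′ records also had larger values than the 3′ records. Its exon with the start codon, chr3R:27418243-27418980, was at 4.91, 9.39, 8.16, 7.12 and 13.8 CPM in male TRAP and 1.75, 1.52, 1.64, 1.68 and 2.90 CPM in male total mRNA (2.19), and its largest female value was 1.26 at the untranslated chr3R:27436612-27437482. A last exon of side, chr3R:27375499-27376646, had 0.26 in males, not called, and was called lower in females at 7.49, 8.18, 6.74 and 7.30 against 7.87, 7.79, 10.7 and 9.21 CPM (-0.26), with overlapping groups.

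Among the Dscam genes, Dscam4 (chromosome 3L, plus strand) differed between its long and short last exon records. chr3L:8280760-8282398 was at 42.3, 65.1, 53.5, 46.1 and 59.2 CPM in male TRAP and 15.8, 18.1, 13.9, 16.1 and 22.7 CPM in male total mRNA (1.62 in males, 0.89 in females). The records with the shorter end were near 2 CPM. Of these, chr3L:8280744-8281147 had 0.26 in males, not called, and chr3L:8280760-8281147 had -0.44 in females, called lower with overlapping groups. Dscam1 (chromosome 2R, minus strand) had 1.69 and 0.98 for the long last exon chr2R:7317924-7320764 and 0.99 and 0.36 for the shorter chr2R:7319554-7320764. tutl (chromosome 2L, plus strand) had 1.80 and 1.14 for chr2L:4319330-4323357 and 1.00 and 0.38 for the shorter chr2L:4319330-4321233. In all 3 genes the longer of the records with a shared 5′ end was the more enriched in both sexes. The longer record contains the shorter, so their reads are partly the same.

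Of the other genes, klg had 2.35 at its start codon exon (chr3R:22914951-22915636) and 1.55 at its last exon (chr3R:22959895-22961731) in males. In males beat-IIa ranged from 1.25 at its last exon (chr3R:17320004-17321123) to 2.06 at the untranslated chr3R:17365766-17366119. beat-IIIb ranged from 1.35 at the last exon chr2L:16992657-16993984 to 2.01 at the start codon exon chr2L:16976490-16977050. beat-IV ranged from 1.13 at chr3R:23578570-23579546 to 1.61 at chr3R:23578879-23580077. The start codon exon of Lac (chr2R:12453190-12454054) was called higher in female TRAP (0.54, groups overlapping) and its last exon (chr2R:12464340-12465630) lower, at 37.6, 40.5, 35.5 and 35.3 CPM in TRAP and 51.1, 51.5, 51.3 and 51.5 CPM in total mRNA (-0.46, without overlap).

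**Figure D3:**
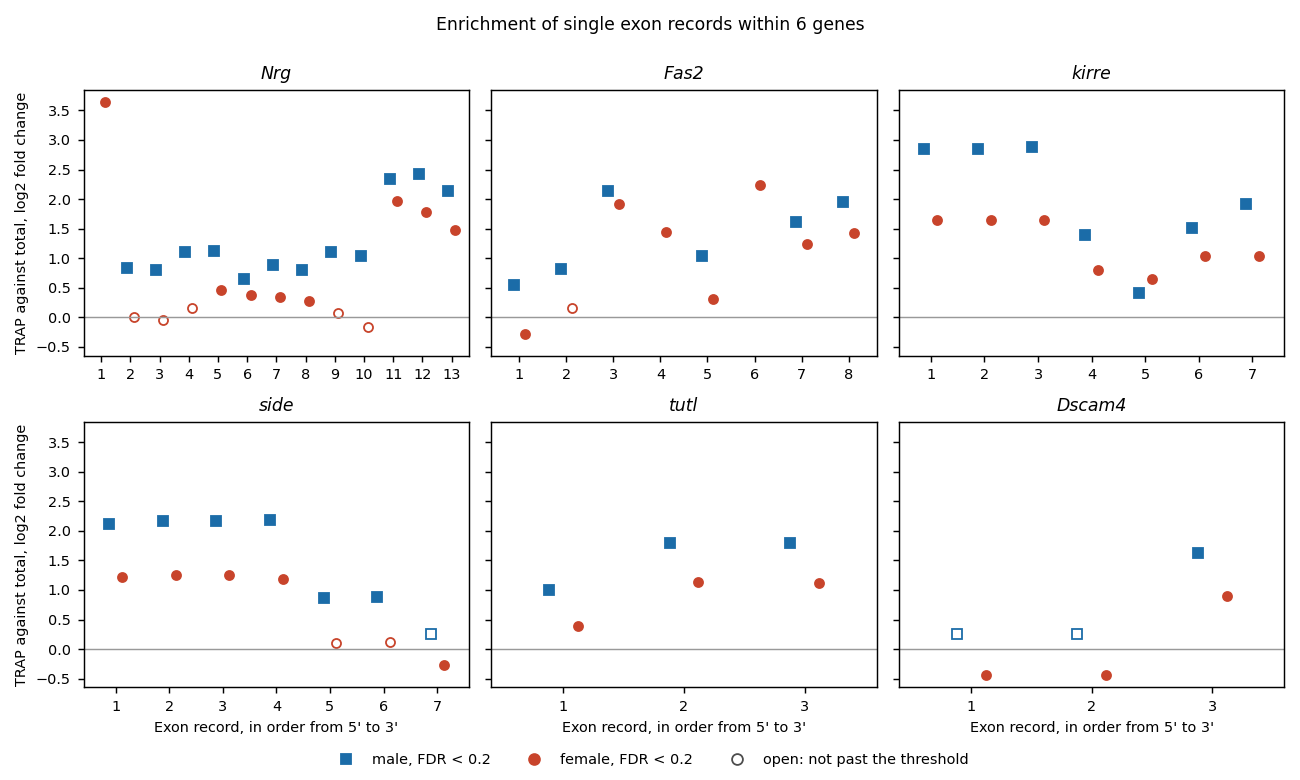
Log2 fold change of TRAP over total mRNA for each tested exon record of Nrg, Fas2, kirre, side, tutl and Dscam4, numbered from 5′ to 3′, in males (blue squares) and females (red circles), with open symbols for records not past the FDR of 0.2. The last 3 Nrg records stand above the rest of the gene except for its first record, which was tested in females alone and is at 3.64.

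Longer last exon records with at least 100 bases past a shorter one were compared with it in 6 of the 36 genes. The log2 ratio of TRAP over total mRNA in the bases past the shorter end minus that in the shorter record was 1.15 ± 0.30 (SD, n = 5 lysates) in males and 1.06 ± 0.17 (SD, n = 4) in females for Dscam1, and 0.92 ± 0.30 and 0.87 ± 0.48 for tutl. It was 0.59 ± 0.24 and 0.03 ± 0.06 for kirre, 0.22 ± 0.23 and 0.02 ± 0.37 for hbs, -0.01 ± 0.50 and -0.48 ± 0.29 for beat-VI, and -0.22 ± 0.23 and -0.62 ± 0.15 for Nrg. Over the 1069 genes with such records the median was 0.67 in males and 0.26 in females, with 87.8% and 72.2% of genes above 0. Dscam1 and tutl were above the median gene, and kirre, hbs, beat-VI and Nrg below it, in both sexes.

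Males and females were then compared within TRAP and within total mRNA. In TRAP, 1 of the 36 genes was higher in males (beat-IIIa) and 11 were lower, where 30.3% of the 13946 genes tested were called higher and 27.2% lower. The median log2 fold change, male over female, was -0.28 for the 36 genes and -0.14 for all genes tested, and 34 of the 36 were below 0, but 30 were with RLE size factors (median of all genes -0.02) and 17 with TMM factors from the genes with over 2 CPM in 60% of libraries (median 0.0040 for the 36 genes and 0.03 for all). The CPM of each comparison were scaled within it, so they differ slightly from those above. The lower genes were 7 beat genes (beat-Ia -0.54, beat-IIa -0.45, beat-IIb -0.48, beat-IV -0.47, beat-Vb -0.40, beat-Vc -0.81 and beat-VI -0.53), side-VII (-0.40), rst (-0.64), Lac (-0.71) and bdl (-0.66). bdl had the smallest adjusted p, with 9.85, 13.4, 11.1, 10.6 and 11.1 CPM in males and 16.9, 19.9, 17.8 and 16.4 CPM in females (-0.66 ± 0.12, adjusted p = 0.00101). Lac was at 30.8, 37.1, 48.7, 31.3 and 42.6 CPM in males and 66.2, 68.9, 57.7 and 56.0 CPM in females (-0.71 ± 0.16, adjusted p = 0.00295). beat-Vc was at 4.61, 7.09, 7.37, 4.59 and 6.64 CPM in males and 13.3, 11.8, 8.02 and 9.62 CPM in females (-0.81 ± 0.20, adjusted p = 0.00573). The sexes did not overlap for these 3 genes, and of all 36 they did not overlap for 6 genes that were lower in males and for 1 that was higher. Of all genes over 1 CPM on average, 24.1% were lower in male TRAP without overlap and 28.4% were higher. None of the Dscam genes was called, with log2 fold changes of -0.24 to -0.023.

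beat-IIIa in TRAP was at 32.4, 42.0, 34.8, 38.5 and 35.4 CPM in males and 29.6, 26.2, 26.3 and 24.2 CPM in females (0.46 ± 0.12, adjusted p = 0.00656). It is the gene whose records overlap CG34106, and with gene counts from records that overlap no other record of the gene its value was -0.30. The count of 11 lower genes was 8 without male TRAP replicate 1, 6 with the size factors of the RLE method, 3 with the filter of over 2 CPM, and 7, 6, 4, 5 and 6 without male TRAP replicate 3, 5 or 6 or female TRAP replicate 2 or 5. The share of all genes called lower fell as well, to 19.63% with RLE size factors, 12.35% with the filter of over 2 CPM and 12.2% without male TRAP replicate 6. Muscle markers were lower in male TRAP for 8 of 10 (median -0.74, summed level 8122 to 16870.0 CPM in males and 17300.0 to 22240.0 CPM in females), 4 of 5 fat body markers were lower (median -0.91) and 1 of 10 neuronal markers (median -0.33), and their part in the result was not tested. At exon level 5 genes held a record that was higher in males and 7 one that was lower, where 31.7% and 25.6% of all genes did. These counts moved with single libraries, the first to 8 without male TRAP replicate 1, 3 without male TRAP replicate 6 or female TRAP replicate 2 and 2 without female TRAP replicate 3 or 5, and the other to 3 without male TRAP replicate 5. Exon usage was called for 0 of the 19 genes tested (edgeR diffSpliceDGE, 1 gene at an unadjusted p under 0.05 and 1, rst, with a replicate block), and for 1, side-II, without female TRAP replicate 4, where 6.69% of all genes tested were called.

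In total mRNA, 2 genes were higher in males and 21 were lower, where 44.0% of the 13375 genes tested were called higher and 38.8% lower. The higher genes were beat-IIIa, at 21.9, 24.5, 19.4, 21.3 and 22.9 CPM in males and 13.3, 11.8, 12.4 and 9.56 CPM in females (0.91 ± 0.10), and side-II, at 15.5, 17.1, 15.2, 15.8 and 16.5 and 12.1, 11.5, 11.6 and 8.39 CPM (0.56 ± 0.10), both without overlap. The largest decrease was in beat-IIIc, at 34.6, 33.6, 26.7, 31.7 and 41.4 CPM in males and 80.1, 77.5, 64.4 and 41.4 CPM in females (-0.97 ± 0.19, adjusted p = 6.11e-04), where the lowest female library, replicate 5, was level with the highest male library. Lac had -0.89, rst -0.80, Nrg -0.78, kirre -0.73, side -0.63 and Fas2 -0.61. The other lower genes were beat-Ic, beat-IIa, beat-IIb, beat-IV, beat-VI, side-IV, side-V, Dscam1, Dscam4, sns, hbs, tutl, bdl and klg, with log2 fold changes of -0.56 (beat-IIa) to -0.33 (Dscam4). With gene counts from records that overlap no other, Dscam1 was higher in males (1.48, called) and beat-VI was at 0.0319, not called. All 4 of kirre, rst, sns and hbs and all 6 of Fas2, Nrg, Lac, tutl, bdl and klg were thus lower in male total mRNA. The sexes did not overlap for 10 of the lower genes. Of all genes over 1 CPM on average, 32.9% were lower in male total mRNA without overlap and 42.1% were higher. With RLE size factors, under which the median of all genes moved from 0.01 to 0.14, 18 genes were lower and 2 higher. Of all genes tested with these factors, 32.95% were called lower and 46.97% higher.

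Female total mRNA replicate 5 lay nearest to the males for many of these genes, and without it 32 of the 36 genes were lower in males. In that fit 40.55% of the 13492 genes tested were called lower and 43.78% higher. Muscle markers were lower in male total mRNA for 10 of 10 (median -0.997) and neuronal markers for 7 of 10 (median -0.44), and 6 of 7 male germline markers were higher (summed level 2867 to 4728 CPM in males and 6.43 to 60.5 CPM in females). Their part in the result was not tested. Lower in males in both TRAP and total mRNA were 7 genes, beat-IIa, beat-IIb, beat-IV, beat-VI, rst, Lac and bdl. At exon level 4 genes held a record that was higher in males and 20 one that was lower, where 47.3% and 46.2% of all genes did. The second count was 32 or 33 when any female total mRNA library was left out. In those fits, unlike the main one, the 5 male libraries alone met the filter of 60% of libraries. The part of this in the change was not tested, and the share of all genes in those fits was not computed. In kirre the coding exon chrX:3130743-3131847 was higher in males, at 5.12, 4.76, 4.90, 5.18 and 5.67 CPM against 3.05, 3.70, 3.58 and 2.15 CPM in females (0.72), while the 5′ untranslated exon chrX:3099762-3100318 was lower (-0.78), both without overlap. beat-VI had a last exon record of each direction, 0.20 for the shorter chr3R:28472647-28473189 and -0.22 for chr3R:28472647-28474814, with overlapping groups. Exon usage was called for 2 of 19 genes, kirre and Nrg, where 35.1% of all genes tested were, for 1 without female total mRNA replicate 2 or 3 and for 5 without replicate 5. In Nrg the values ran from -0.73 at chrX:8550083-8551207 to 0.0022 at chrX:8551750-8552119, which was not called.

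**Figure D4:**
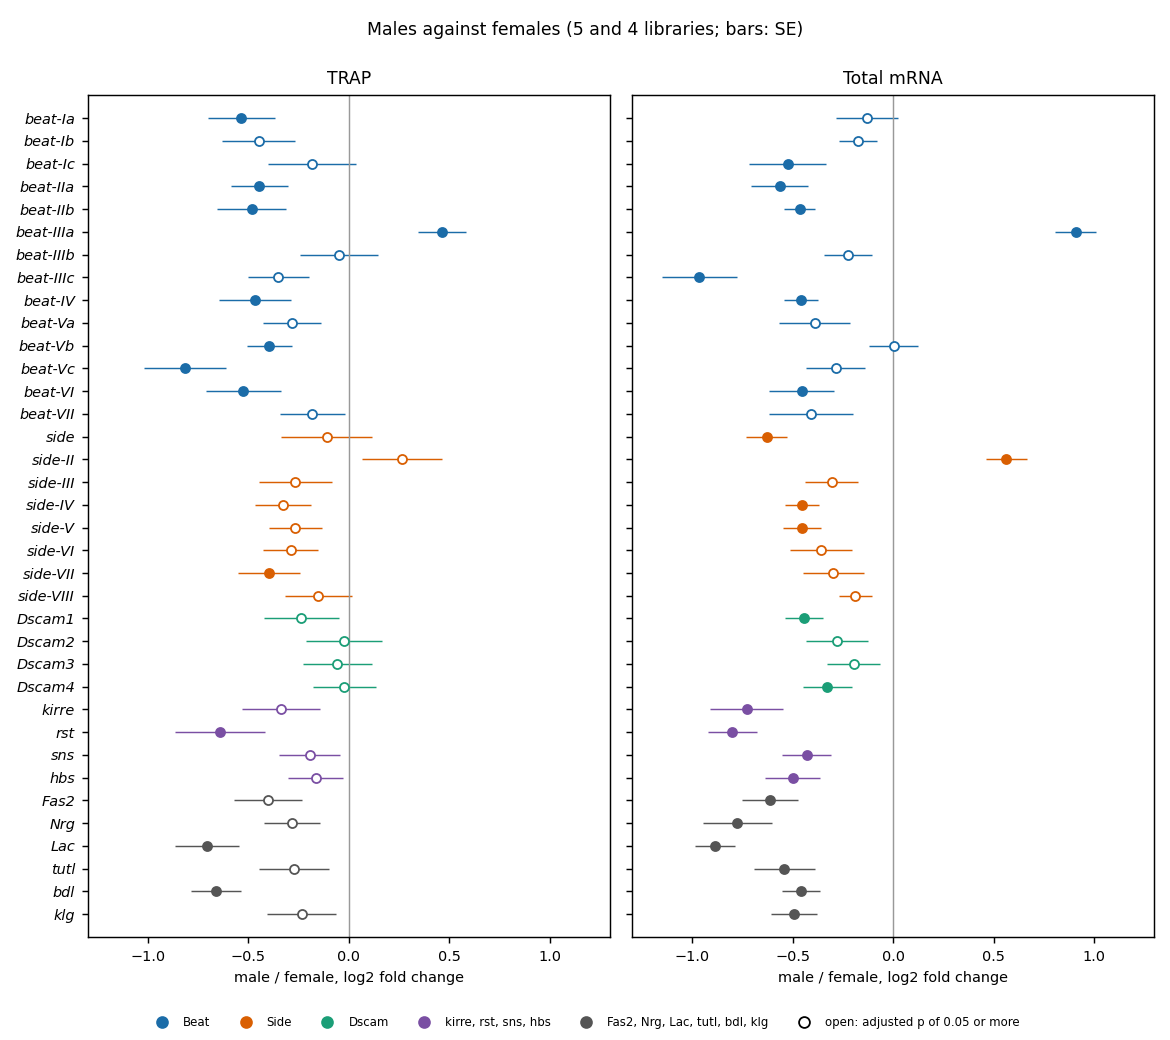
Log2 fold change of males over females for the 36 genes in TRAP (left) and total mRNA (right), with bars of 1 SE and filled circles for genes with an adjusted p under 0.05. Left of 0 lie 34 circles in TRAP (30 with RLE size factors) and 33 in total mRNA (32), with beat-IIIa to the right in both panels (0.46 and 0.91) and side-II to the right in total mRNA (0.56).

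The last comparison asked whether the enrichment itself differed between the sexes, as the log2 ratio of TRAP to total mRNA in males minus that in females over all 18 libraries. All 36 values were above 0 with TMM scaling and 29 with RLE size factors, 28 were called higher in males and none lower (edgeR quasi-likelihood test, and 0 lower also at an unadjusted p under 0.05 and by DESeq2), where 35.8% of the 14121 genes tested were called higher and 6.25% lower. This depended on the scaling. The median over all genes tested was 0.46 with TMM scaling and 0.02 with RLE size factors, and with the latter 2.76% of all genes were called higher and 11.4% lower, and 1 of the 36 genes was called. Without male TRAP replicate 1 or without female total mRNA replicate 5, 29 were called with TMM scaling. Relative to the TMM median of all genes, 29 of the 36 were above it. The largest value was that of beat-IIIc, 1.21 ± 0.25 (adjusted p = 0.00177), or 0.74 above the median gene, and it was the gene still called with RLE size factors (0.74, adjusted p = 0.0416) and, with Nrg, by DESeq2 (adjusted p = 0.0227 and 0.0245). With gene counts from records that overlap no other, 2 genes were called higher and Dscam1 lower (-0.91), and hbs was at -0.13, not called. With RLE size factors 7 genes were below 0, among them bdl (-0.0509). After beat-IIIc the largest values were those of side (1.12 ± 0.26), Nrg (1.08 ± 0.22), kirre (0.98 ± 0.28) and beat-Ic (0.94 ± 0.30). The smallest values were those of beat-Vc (0.067), beat-IIIa (0.15), beat-Ia (0.19), beat-Vb (0.20), side-II (0.30) and beat-Ib (0.32), none of them called. By family the medians were 0.58 for the beat genes (8 of 14 called), 0.65 for the side genes (6 of 8), 0.83 for the Dscam genes (4 of 4), 0.88 for kirre, rst, sns and hbs (4 of 4) and 0.83 for the other 6 (6 of 6). Neuronal markers had a median of 0.74 and muscle markers of 0.72 in the same fit, and their part in the result was not tested.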

How the data were processed

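TRAP and total mRNA were measured in 18 libraries. Per the labels and the study's methods, the authors selected poly(A) RNA, made directional libraries, sequenced single reads of 100 bp, aligned them with STAR 2.7.2a to dm6 and counted unique reads per exon with featureCounts, with SAMtools 1.2 also listed in the submitters' processing notes. The strand setting of the counting and the annotation release are not given in the sources used here. The deposited values used here are raw counts per exon record in 18 files, 1 per library, with 87508 records of 17753 genes. A deposited table of normalised values for the whole series was not used here. Symbols were matched for 17625 gene IDs (99.3%). hbs was matched by its coordinates, and 99.6% of records had the exact coordinates of an annotated exon of the reference annotation.

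Gene counts were sums of records, longest first, leaving out any that overlapped one already taken (69946 records). Genes passing filterByExpr were scaled by TMM and tested with the quasi-likelihood F test of edgeR 4.0.16 (R 4.3.3, limma 3.58.1) with Benjamini-Hochberg adjustment, called at 0.05. The same test served for the interaction of sex and TRAP. Exon records with over 2 CPM in 60% of libraries were compared with the edgeR exact test at an FDR of 0.2, and usage with diffSpliceDGE at 0.05. CPM were scaled within each comparison. Plots and tables were made with Python 3.11.15, pandas 2.3.3, numpy 2.4.6 and matplotlib 3.10.9. The fits were tested on simulated data with known changes, in which the usage test and DESeq2 made more false calls than their nominal rate, and most changes in the interaction were missed by both edgeR and DESeq2. Each record was simulated on its own, so reads shared by overlapping records were not covered. Replicates are separate pools of pupae as far as the labels tell, and p-values measure the spread between these libraries.

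TRAP and total mRNA of the same number came from the same lysate, and their deviations from the group means correlated at 0.241 to 0.514 in males and 0.153 to 0.759 in females, so that the fits with the replicate block are given where they change a call. Numbers shared by the sexes mark no common source. Alternatives were RLE size factors, DESeq2 1.42.0, other filters, gene counts from records that overlap no other, another FDR, the replicate block and the omission of each library. The 36 genes and the lists were chosen with earlier results of these data known. All 36 are accounted for. Those called are named in the comparisons of sexes, and the largest and smallest records are given for genes with usage called or records called in both directions. Marker lists are textbook genes of each cell type. Of 665 member records, 14 had no counts in any library, 9 overlapped a gene read from their own strand and 16 an antisense gene.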

Additional observations from a re-analysis of the deposited data

Results flagged for a closer look

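In groups of 4 and 5 libraries, 4 of 144 gene levels had 1 library far from the others by Dixon's criterion, where chance gives about 1 in 20. side-VIII was at 21.1 CPM in female TRAP replicate 3 against 26.3 to 27.1 CPM in the other libraries, and at 18.9 CPM in female total mRNA replicate 3 against 17.8 to 17.9 CPM. Dscam4 was at 51.8 CPM in female total mRNA replicate 2 against 44.8 to 45.7 CPM. rst was at 42.5 CPM in female total mRNA replicate 5 against 50.9 to 51.8 CPM.

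The enrichment in TRAP differed between the sexes by the interaction test for 28 of the 36 genes with TMM scaling, and for 1 with RLE size factors. Of all genes tested, 35.8% were called higher in males and 6.25% lower with TMM scaling. With RLE size factors these shares were 2.76% and 11.4%. The values below are those with TMM scaling. Given as the male minus the female log2 enrichment, it was 1.21 for beat-IIIc, 0.94 for beat-Ic, 0.82 for beat-VII, 0.77 for beat-IIIb, 0.71 for beat-IIa, 0.71 for beat-Va, 0.59 for beat-IV and 0.58 for beat-IIb. Among the side genes it was 1.12 for side, 0.78 for side-V, 0.72 for side-IV, 0.67 for side-VI, 0.64 for side-III and 0.63 for side-VIII. It was 0.90 for Dscam4, 0.85 for Dscam2, 0.81 for Dscam1 and 0.74 for Dscam3, and 0.98 for kirre, 0.93 for hbs, 0.83 for sns and 0.75 for rst. It was 1.08 for Nrg, 0.86 for tutl, 0.85 for klg, 0.80 for Fas2, 0.78 for Lac and 0.39 for bdl. The median over all genes tested was 0.46, and the value of bdl was below it.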

How the results depend on the processing

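The 33 genes higher in male TRAP were the same with RLE size factors, DESeq2, either other filter and the replicate block, and the 34 calls in females were the same with these except that 33 were kept with no filter. Gene counts from records that overlap no other, which hold fewer reads, kept 28 of the 33 and 24 of the 34. The lysate block gave 34 higher in males, and 32 higher and 2 lower in females. Usage calls with the block were 11 in males and 7 in females, and 16 and 12 with records of over 1 CPM. For the sexes, where replicates share only a number and same-number correlations were -0.272 to 0.103, the block gave 8 lower genes in TRAP and 14 in total mRNA, usage calls of 1 and 4, and 9 higher and 11 lower at exon level in TRAP, and in the interaction 28 genes. With no filter on records, 8 genes had a record lower in male TRAP and 9 in female TRAP, 14 had one higher and 14 lower between the sexes in TRAP, and 16 and 31 in total mRNA. At an FDR of 0.05 the record counts were 2 lower in female TRAP, and 2 higher and 3 lower between the sexes in TRAP. The share of all genes was not computed for any exon-level or usage alternative, so these counts have no background beside them. Between the sexes in TRAP, the lower genes were 6 with RLE size factors, 3 with no filter, 3 with over 2 CPM (and 2 higher), and 4 with records that overlap no other (and 0 higher). With the last setting 1 gene was higher in male total mRNA. The interaction gave 1 gene with RLE size factors, 2 with over 2 CPM, 2 with DESeq2, and 2 higher and 1 lower with records that overlap no other. The cause of these changes was not tested.

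Leaving out 1 library gave 33 to 34 genes higher in males, 31 to 32 higher and 1 to 2 lower in females, 4 to 14 lower between the sexes in TRAP, 18 to 32 lower in total mRNA and 22 to 29 in the interaction. At exon level it gave 2 to 5 genes with a record lower in female TRAP, 2 to 8 higher and 3 to 9 lower between the sexes in TRAP, and 18 to 33 lower in total mRNA. Usage calls were 5 to 8 in females, 0 to 1 between the sexes in TRAP and 1 to 5 in total mRNA.

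The log2 values of named genes were also recomputed, 36 in each comparison of TRAP with total mRNA and, for the sexes and the interaction, those of the called genes alone. Over all alternatives, 12 of these changed sign. With records that overlap no other these were beat-Va in males (-0.00234) and females (-0.35), beat-IV (-0.0434) and Dscam3 (-0.0416) in females, beat-IIIa between the sexes in TRAP (-0.30), beat-VI (0.0319) and Dscam1 (1.48) in total mRNA, and Dscam1 (-0.91) and hbs (-0.13) in the interaction. The interaction of bdl was -0.0509 with RLE size factors, -0.0425 with over 2 CPM and -0.0425 with DESeq2. Of the others, 1986 kept direction and side of the threshold, 271 lost the call and 5 gained it. Genes not called in a comparison of the sexes are outside these counts, although some gained a call or changed sign, as when 32 genes were lower in total mRNA without female replicate 5. The lowest library total of 24901633 counts limits the low records most.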
